A study of Homo sapiens with 6 samples.

Results

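Cholesterol and fatty acid synthesis genes were followed in MDA-MB-231 cells, a human triple-negative breast cancer line with mesenchymal features, after transfection of miRNA precursors. The set held 37 genes, which were found through the RefSeq transcript accessions that name the array probes, out of 21743 genes with a named probe. The cells had received, by reverse transfection, a precursor of hsa-miR-205-5p, a precursor of hsa-miR-214-3p or, as the control, a scrambled negative precursor, and RNA was taken at 72 h. Each group was measured on 2 Agilent arrays with 1 dye, and all 6 arrays lay on 1 slide. The labels number the replicates without saying that they were separate cultures, so the p-values cover the spread between these arrays, which may be technical. The arrays of each group lay side by side on the slide, and both miR-214-3p arrays lay in another row than the rest, so that group and place on the slide cannot be told apart.

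Cells build cholesterol from acetyl-CoA through the mevalonate steps, which end in farnesyl diphosphate, and then through the sterol steps, which start with squalene. Fatty acids are built from the same acetyl-CoA by carboxylation, chain building, elongation and desaturation. Both routes are switched on by the SREBP transcription factors, which SCAP carries out of the endoplasmic reticulum when sterols are low and which the INSIG proteins hold back when sterols are high.

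Both miRNAs are shown because the comparisons turn on them. Their mature sequences are from RefSeq (GRCh38.p14), with the seed, bases 2 to 8, in capitals, and the seeds are not shared. The miR-205-5p sequence lies at chr1:209432166-209432187 on the plus strand and the miR-214-3p sequence at chr1:172138816-172138837 on the minus strand. The levels of the miRNAs themselves were not measured on these arrays.
hsa-miR-205-5p: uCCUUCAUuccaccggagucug
hsa-miR-214-3p: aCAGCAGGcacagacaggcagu

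Leaving out control spots, 58717 spots were read per array, and 20813 to 24759 of them were well above background. The identity of the line was checked against fixed markers. VIM, CD44, AXL and CAV1 were well above background on all 6 arrays and SPARC on 0. Of the markers of luminal breast cells, ESR1, PGR and FOXA1 were above background on 0 arrays and GATA3 on 6. Of the leukocyte markers, CD3E was above background on 0 arrays and PTPRC on 2, and all 3 adipocyte markers were on 0.

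Levels are given as normalized log2 signals, the log2 of the processed signal minus the 75th percentile of its array. The 37 genes had 45 probes, of which 41 were kept because, in at least 1 group, both arrays showed them well above background. Through these, 34 genes were tested, each by its brightest kept probe. SQLE, MSMO1 and SC5D, which all act in the sterol steps, were above background on 0 arrays and were not tested. Differences were tested with limma over all 6 arrays, and a gene was called at a Benjamini-Hochberg adjusted p under 0.05 and at least a 2-fold change.

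With miR-205-5p, MVK and STARD4 rose and HSD17B7, INSIG1 and ABCG1 fell against the scrambled control. These 2 genes called higher (5.88% of 34) and 3 called lower (8.82%) stood beside 4.79% and 7.98% of all 11974 genes tested. All 3 called lower were above background on 0 miR-205-5p arrays and passed the filter only through groups where they were higher. Their count is therefore no support for a fall of the set. The call of ABCG1 rests on fitted values of a dim probe, whose bound, at least 1.67-fold, was under the 2-fold limit. With miR-214-3p, TM7SF2 and SCAP fell against the same control arrays, and limma called 0 members higher. The shares were 0% higher and 5.88% lower, beside 1.09% and 2.02% of all genes. At an unadjusted p under 0.05 with the same fold limit, 1 member was higher with miR-214-3p, and the methods' t-test found 0.

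Between the precursors, where no control array enters the difference, MVK was higher with miR-205-5p, and AACS, CYP51A1, HSD17B7, INSIG1, NPC1 and ACSS2 were lower. That is 1 of 34 members (2.94%) called higher and 6 (17.6%) called lower, beside 9.19% and 11.3% of all genes tested. These shares rest on few members, so the counts are no result about the set as a whole. The median log2 fold change of the members was 0.09 for miR-205-5p against the control, beside 0.08 for all genes. It was 0.17 beside −0.01 for miR-214-3p against the control, and −0.10 beside 0.12 between the precursors. Setting the members that were below background in a group to their bounds (3, 0 and 2 of the 34) could not move these medians, because those members stayed below them.

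The balance of rises and falls depended on the scaling. With each array scaled to its median, the median of all genes moved by −0.39 for miR-205-5p against the control, and the members called became 1 higher and 7 lower, while all genes called went from 573 to 211 higher and from 956 to 1877 lower. Between the precursors the median of all genes moved by −0.22 and the calls became 0 higher and 7 lower, with all genes going from 1100 to 636 higher and from 1353 to 1805 lower. In both cases MVK lost its call, at a log2 fold change of 0.68 against the control and 0.81 against miR-214-3p. It also fell short of the fold limit with quantile normalization and in the deposited table of log2 values, at 0.87 against the control and 0.81 against miR-214-3p in both.

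**Figure D1:**
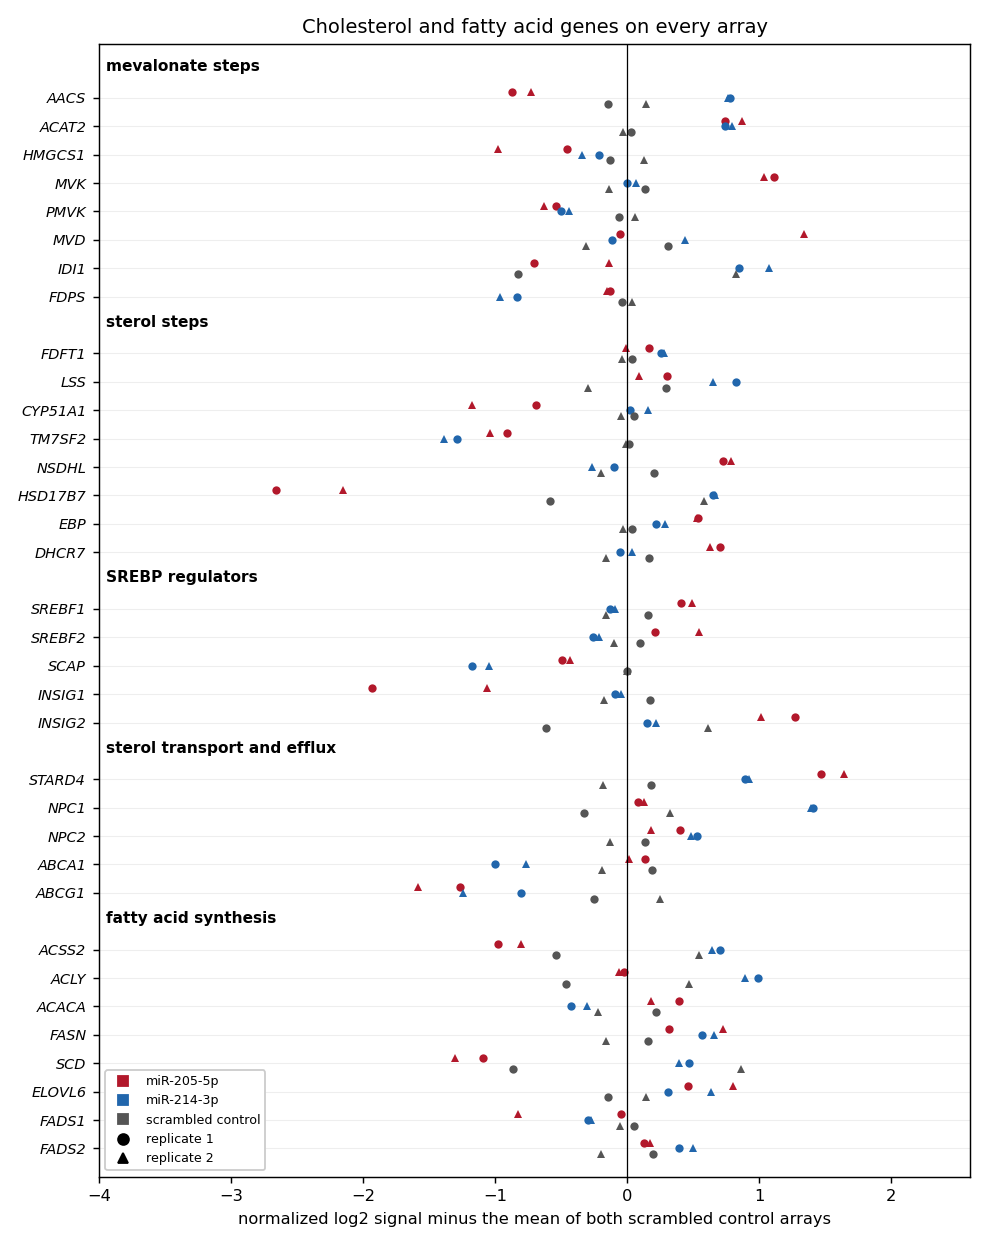
The horizontal axis gives the normalized log2 signal of the 34 tested genes on each of the 6 arrays minus the mean of both control arrays, with 1 gene per line, colours for the groups and shapes for the replicates. HSD17B7 on the miR-205-5p arrays lies farthest to the left, and the control arrays of IDI1, HSD17B7, INSIG2, ACSS2 and SCD lie over 1 apart.

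Of the 8 genes of the mevalonate steps, MVK was called higher in both comparisons that involve miR-205-5p and AACS lower between the precursors. This is 1 of 8 (12.5%) in each case, beside 4.79% and 9.19% of all genes called higher and 11.3% called lower, and too few to speak of the steps as a group. Where groups are said below not to overlap, 2 arrays stand against 2, and 65.2%, 58.5% and 80.4% of all genes did not overlap in the 3 comparisons either. MVK, which phosphorylates mevalonate, had signals of 7.50 and 7.42 on the miR-205-5p arrays, 6.39 and 6.46 on the miR-214-3p arrays and 6.53 and 6.25 on the control arrays. Both miR-205-5p arrays lay above all other arrays, while the miR-214-3p and control arrays overlapped. The log2 fold change was 1.07 ± 0.17 (SE) for miR-205-5p against the control (limma adjusted p = 0.0163) and 1.04 ± 0.17 (SE) against miR-214-3p (limma adjusted p = 0.0114). It was 0.03 for miR-214-3p against the control.

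AACS, which activates acetoacetate for lipid synthesis, had signals of 2.13 and 2.28 with miR-205-5p, 3.79 and 3.77 with miR-214-3p and 2.86 and 3.15 in the controls. The 3 groups did not overlap, with the controls in the middle. The fall was called only between the precursors, at −1.58 ± 0.18 (SE, limma adjusted p = 0.00503). Against the control the values were −0.80 with miR-205-5p, short of the fold limit (limma adjusted p = 0.0342), and 0.77 with miR-214-3p (limma adjusted p = 0.0842). The other kept AACS probe gave −0.47 between the precursors (limma adjusted p = 0.136), so the size of the AACS difference depended on the probe.

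HMGCS1, which makes HMG-CoA, had signals of 0.17 and −0.35 with miR-205-5p, 0.41 and 0.28 with miR-214-3p and 0.49 and 0.75 in the controls. The controls lay above both precursor groups, and no difference was called. It was −0.71 with miR-205-5p (limma adjusted p = 0.0867) and −0.28 with miR-214-3p (limma adjusted p = 0.524). ACAT2, a thiolase that joins 2 acetyl-CoA units, was 0.80 above the control with miR-205-5p (limma adjusted p = 0.0243) and 0.77 with miR-214-3p (limma adjusted p = 0.0658), both short of the fold limit. FDPS, which makes farnesyl diphosphate, differed from the control by −0.14 with miR-205-5p and −0.90 with miR-214-3p (limma adjusted p = 0.0509). PMVK and MVD, the enzymes that follow MVK, were not called in any comparison, with log2 fold changes between −0.58 and 0.64, and IDI1 is given with the control arrays.

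Among the sterol steps, HSD17B7 had the largest fitted difference of all members in both comparisons that involve miR-205-5p. With background correction by normexp this rank was lost, at −0.65 against the control, beside 0.83 for STARD4. Between the precursors it was then −0.96, beside −1.16 for AACS. The offset of 50 in that setting shrinks the fold changes of dim probes, so the lost rank decides nothing about HSD17B7. The enzyme HSD17B7 reduces the ketone left when methyl groups are removed from the sterol ring. Its signals were −2.56 and −2.05 with miR-205-5p, where neither array was well above background, 0.75 and 0.77 with miR-214-3p and −0.48 and 0.69 in the controls. Both miR-205-5p arrays lay below all others, and the control replicates differed from each other. With miR-205-5p it was at least 3.28-fold lower than in the control (log2 fold change −2.40 ± 0.41 SE, limma adjusted p = 0.0191) and at least 5.18-fold lower than with miR-214-3p (−3.06 ± 0.41 SE, limma adjusted p = 0.00707). A bound of this kind sets the brighter group against the lowest signal that counted as above background, or the dim probe's own where that was higher. The other 2 kept HSD17B7 probes were called lower between the precursors, 1 at least 3.46-fold, with neither miR-205-5p array above background, and 1 at −1.31, with 1 array above. Against the control neither was called, at least 2.24-fold lower (limma adjusted p = 0.0848) and at −0.93 (limma adjusted p = 0.0946). RefSeq lists pseudogenes of HSD17B7, as of AACS, IDI1, FDPS, CYP51A1 and SCD, and whether their transcripts add to these signals was not tested.

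CYP51A1, the lanosterol demethylase, had signals of 0.09 and −0.39 with miR-205-5p, 0.80 and 0.94 with miR-214-3p and 0.83 and 0.73 in the controls. The miR-205-5p arrays lay below all others, while the other groups overlapped. The call between the precursors was −1.02 ± 0.21 (SE, limma adjusted p = 0.0209), and the difference of miR-205-5p from the control, −0.93, fell short of the fold limit (limma adjusted p = 0.0373). In the deposited table of log2 values the difference between the precursors was −0.99, also short of that limit.

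TM7SF2, a sterol C14 reductase, had signals of −0.18 and −0.31 with miR-205-5p, −0.56 and −0.65 with miR-214-3p and 0.74 and 0.72 in the controls. Both precursor groups lay below the controls without overlap. Only miR-214-3p passed the fold limit, at −1.34 ± 0.15 (SE, limma adjusted p = 0.0311), beside −0.98 with miR-205-5p (limma adjusted p = 0.0158). TM7SF2 was called lower with miR-205-5p too in the deposited table of log2 values and with arrays scaled to the median. The same held with the 75th percentile taken over probes above background on all arrays. The difference between the precursors, 0.36, was not called (limma adjusted p = 0.124), so the fall was not shown to be particular to miR-214-3p.

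The remaining sterol enzymes had no call. NSDHL, which works in the same demethylation as HSD17B7, was 0.76 above the control with miR-205-5p (limma adjusted p = 0.0515) and 0.94 above miR-214-3p (limma adjusted p = 0.0214). DHCR7, which makes cholesterol in the last step of its route, was 0.67 above the control (limma adjusted p = 0.0558) and 0.68 above miR-214-3p (limma adjusted p = 0.0392) with miR-205-5p. FDFT1, LSS and EBP stayed between −0.54 and 0.74 in the 3 comparisons.

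Of the 5 regulators tested, 1 (20%) was called lower in each comparison, beside 7.98%, 2.02% and 11.3% of all genes, which is too few to speak of the group. By limma 0 were called higher. In either direction, 4, 1 and 4 of the 5 were under an unadjusted limma p of 0.05, beside 4727, 2903 and 5771 of all 11974 genes. INSIG1, which retains SCAP in the endoplasmic reticulum and is itself an SREBP target, had signals of −1.99 and −1.12 with miR-205-5p, where neither array was well above background, −0.14 and −0.10 with miR-214-3p and 0.12 and −0.23 in the controls. The miR-205-5p arrays lay below all others, and the other groups overlapped. INSIG1 was at least 2.64-fold lower than in the control (−1.50 ± 0.32 SE, limma adjusted p = 0.0317) and at least 2.52-fold lower than with miR-214-3p (−1.43 ± 0.32 SE, limma adjusted p = 0.0251). Its paralog INSIG2 had signals of 0.70 and 0.44 with miR-205-5p, −0.42 and −0.36 with miR-214-3p and −1.19 and 0.04 in the controls. The miR-205-5p arrays were the highest, but the difference from the spread-out controls, 1.14, was not called (limma adjusted p = 0.107).

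SCAP had signals of 4.15 and 4.21 with miR-205-5p, 3.46 and 3.59 with miR-214-3p and 4.64 and 4.64 in the controls. The groups did not overlap, with miR-214-3p lowest. Its fall with miR-214-3p was −1.11 ± 0.15 (SE, limma adjusted p = 0.0371), beside −0.46 with miR-205-5p (limma adjusted p = 0.0898). The precursors differed by 0.65 (limma adjusted p = 0.0286), short of the fold limit.

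SREBF1, which encodes the factor that drives mainly fatty acid genes, had signals of 7.10 and 7.17 with miR-205-5p, 6.55 and 6.59 with miR-214-3p and 6.84 and 6.53 in the controls. The miR-205-5p arrays were above the rest by 0.45 against the control (limma adjusted p = 0.129) and 0.56 against miR-214-3p (limma adjusted p = 0.0602), with no call. The other kept SREBF1 probe gave 0.99 against the control (limma adjusted p = 0.0402), just under the fold limit. SREBF2, whose product drives mainly cholesterol genes, had signals of 3.36 and 3.69 with miR-205-5p, 2.89 and 2.94 with miR-214-3p and 3.25 and 3.05 in the controls. The miR-205-5p arrays were again the highest, at 0.38 above the control (limma adjusted p = 0.202) and 0.61 above miR-214-3p (limma adjusted p = 0.0566), without a call.

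Of the genes for sterol transport, STARD4, a soluble carrier that moves cholesterol between membranes, had signals of 1.65 and 1.82 with miR-205-5p, 1.07 and 1.10 with miR-214-3p and 0.36 and −0.01 in the controls. The groups did not overlap, and the controls were lowest. STARD4 rose by 1.56 ± 0.19 (SE) on the log2 scale with miR-205-5p (limma adjusted p = 0.0102). With miR-214-3p it was 0.91 above the control (limma adjusted p = 0.0738), and the precursors differed by 0.65 (limma adjusted p = 0.0511), so that no difference between them was called.

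NPC1, which moves cholesterol out of lysosomes, had signals of 2.00 and 2.05 with miR-205-5p, 3.33 and 3.31 with miR-214-3p and 1.59 and 2.25 in the controls. The miR-214-3p arrays were above all others, and the miR-205-5p arrays lay between the control arrays. NPC1 was lower with miR-205-5p than with miR-214-3p by −1.29 ± 0.25 (SE, limma adjusted p = 0.0164). Against the control, miR-214-3p gave 1.40 ± 0.25 (SE), with a limma adjusted p of 0.054. Its partner NPC2 differed by at most 0.51 in any comparison.

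The efflux pumps ABCA1 and ABCG1 are known targets of sterol-sensing nuclear receptors. ABCG1 had signals of −2.14 and −2.46 with miR-205-5p, where neither array was above background, −1.67 and −2.11 with miR-214-3p, where 1 array was, and −1.12 and −0.62 in the controls. The controls lay above both precursor groups. ABCG1 was at least 1.67-fold lower with miR-205-5p (−1.42 ± 0.27 SE, limma adjusted p = 0.0233), and −1.02 with miR-214-3p was not called (limma adjusted p = 0.108). Its probe passed the filter only through the control arrays, where it was high, so its fall adds no support to the count of members called lower.

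ABCA1 had signals of 0.59 and 0.47 with miR-205-5p, −0.54 and −0.31 with miR-214-3p and 0.65 and 0.27 in the controls. The miR-214-3p arrays were the lowest, and the miR-205-5p and control arrays overlapped. The differences were 0.07 with miR-205-5p (limma adjusted p = 0.814), −0.88 with miR-214-3p (limma adjusted p = 0.0847) and 0.96 between the precursors (limma adjusted p = 0.0215), the last short of the fold limit. The other ABCA1 probe was above background on the control arrays only.

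Of the 8 fatty acid genes, 1 was called, ACSS2, which was lower between the precursors (12.5%, beside 11.3% of all genes). ACSS2, which makes acetyl-CoA from acetate, had signals of 0.54 and 0.72 with miR-205-5p, 2.22 and 2.16 with miR-214-3p and 0.98 and 2.06 in the controls. The precursor groups lay apart, with the control arrays between them. The difference between the precursors was −1.56 ± 0.36 (SE, limma adjusted p = 0.0279). SCD, which puts the double bond into stearate, had signals of 0.26 and 0.04 with miR-205-5p, 1.82 and 1.74 with miR-214-3p and 0.49 and 2.21 in the controls. The control arrays spanned the miR-214-3p arrays, and −1.63 ± 0.54 (SE) between the precursors was not called (limma adjusted p = 0.0713).

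FASN, the fatty acid synthase, had signals of 5.32 and 5.73 with miR-205-5p, 5.57 and 5.66 with miR-214-3p and 5.16 and 4.84 in the controls. Both precursor groups lay above the controls and overlapped each other, with differences of 0.52 (limma adjusted p = 0.142) and 0.61 (limma adjusted p = 0.181) from the control. ACACA, the carboxylase that makes malonyl-CoA, had signals of 5.37 and 5.16 with miR-205-5p, 4.55 and 4.67 with miR-214-3p and 5.20 and 4.76 in the controls. The miR-205-5p and control arrays overlapped, and 0.65 between the precursors was not called (limma adjusted p = 0.0643). The other kept ACACA probe passed the filter only through the control arrays, where it was high. It was not called, at least 1.11-fold lower with miR-205-5p than in the control (limma adjusted p = 0.0782). Its fall therefore cannot decide whether the direction depended on the probe. ACLY, which makes acetyl-CoA from citrate, differed by −0.99 between the precursors (limma adjusted p = 0.0654). ELOVL6, FADS1 and FADS2, which elongate and desaturate, were not called, with log2 fold changes from −0.44 to 0.63.

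**Figure D2:**
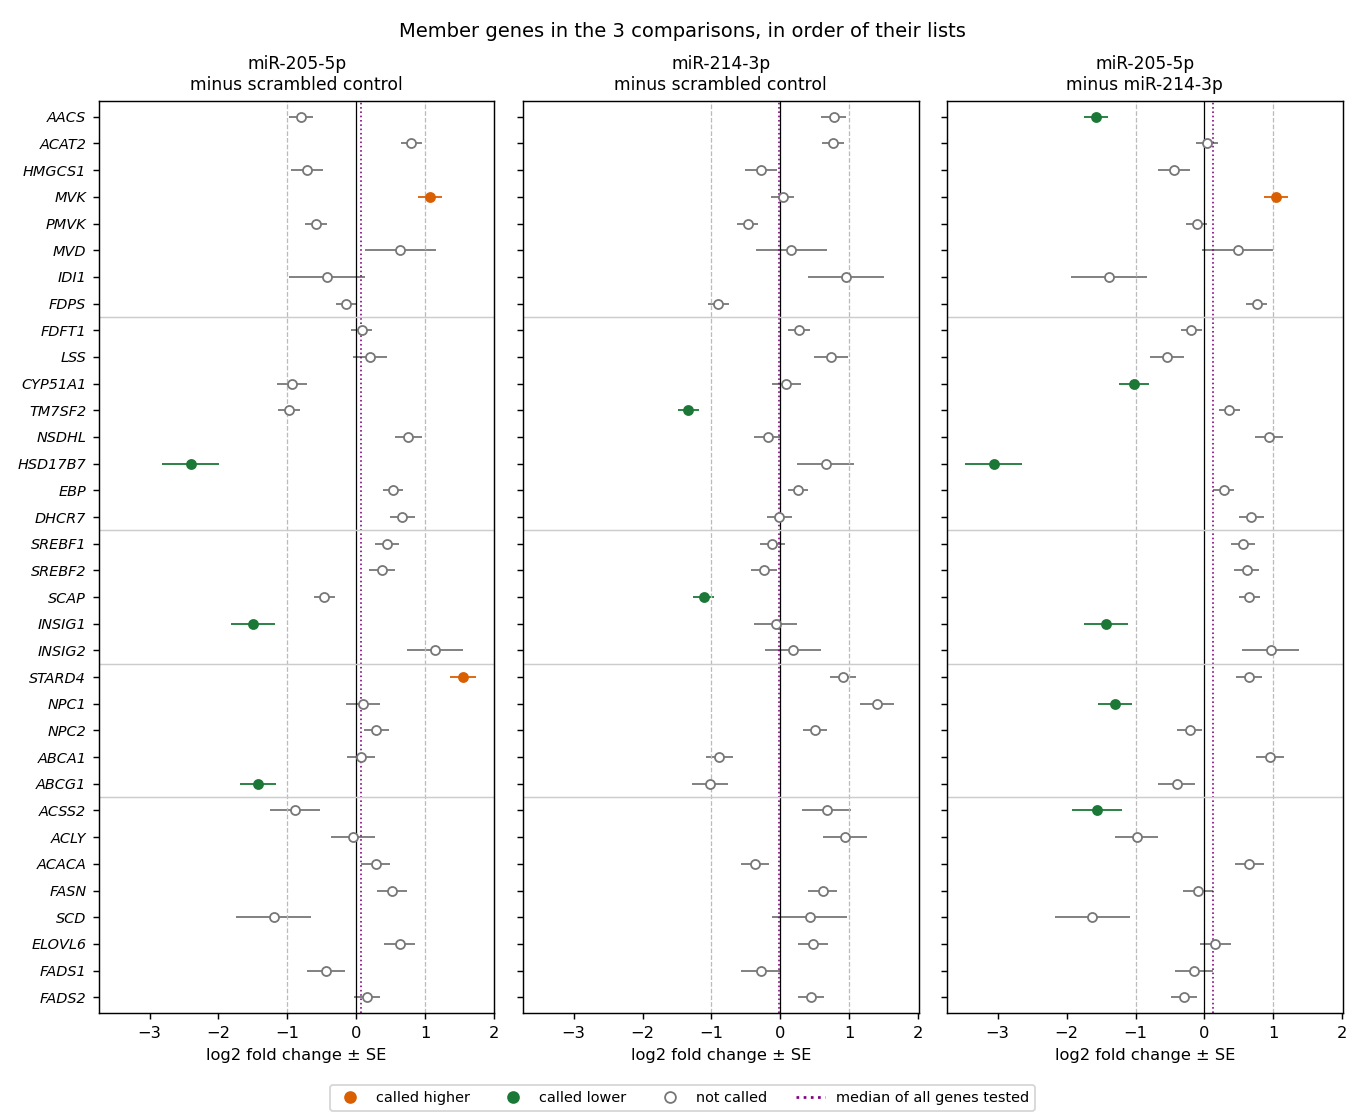
Each panel gives the log2 fold change of the 34 tested genes in 1 comparison, with bars for the SE from limma (2 arrays per group), filled points for called genes, dashed lines at the 2-fold limit and a dotted line at the median of all 11974 genes. HSD17B7 and INSIG1 are lower with miR-205-5p in both panels that hold it, and MVK is higher. The MVK call was lost with quantile normalization, with arrays scaled to the median and in the deposited table of log2 values.

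The calls rested on few arrays. In some fits without 1 array limma called 0 of all 11974 genes, so that a call lost there does not set a member apart. This was so for miR-205-5p against the control without miR-205-5p replicate 2, between the precursors without miR-214-3p replicate 2, and for miR-214-3p against the control without any array other than scrambled control replicate 2. STARD4 lost its call without miR-205-5p replicate 2 (log2 fold change 1.47, limma adjusted p = 0.0625). AACS lost it without miR-214-3p replicate 1 (−1.57, limma adjusted p = 0.0512) or replicate 2 (−1.58, adjusted p = 0.0565), and so did HSD17B7 between the precursors (−3.07 and −3.05, adjusted p = 0.0524 and 0.0586). Against the control, HSD17B7 kept its call without either control array (−2.99 and −1.82) and lost it without any of the other 4 arrays, at −2.15 to −2.66 and adjusted p of 0.0567 to 0.0802. INSIG1 against the control lost its call without any of the 6 arrays, at −1.06 to −1.93 and adjusted p of 0.056 to 0.0807.

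MVK and ABCG1 against the control kept their calls only without scrambled control replicate 1, at 1.21 and −1.67. Without any other array, MVK stood at 0.93 to 1.11 and ABCG1 at −1.17 to −1.58. TM7SF2 and SCAP kept theirs only without scrambled control replicate 2, at −1.35 and −1.11, and stood at −1.29 to −1.38 and −1.05 to −1.18 without any other array. Between the precursors, MVK, NPC1 and ACSS2 lost their calls without any 1 of the 4 arrays compared, at 1.00 to 1.08, −1.27 to −1.31 and −1.47 to −1.65. CYP51A1 lost its call without miR-205-5p replicate 2 (−0.78) or either miR-214-3p array (−1.09 and −0.95), and INSIG1 without miR-205-5p replicate 1 (−0.99) or either miR-214-3p array (−1.45 and −1.41). With background correction by normexp only SCAP, AACS and NPC1 kept their calls. For miR-205-5p against the control the values became 0.79 for MVK, 0.83 for STARD4, −0.65 for HSD17B7, −0.47 for INSIG1 and −0.18 for ABCG1. TM7SF2 with miR-214-3p became −0.58. Between the precursors MVK became 0.94, ACSS2 −0.93, CYP51A1 −0.43, HSD17B7 −0.96 and INSIG1 −0.33. The normexp setting adds an offset of 50, beside 75th percentiles of 35.1 to 58 per array, which shrinks the fold changes of dim probes. A call that a dim probe lost there therefore cannot decide whether its difference holds.

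The control arrays differed from each other more than the replicates of either precursor did. Over the 34 members, the root mean square difference between replicates was 0.635 on the log2 scale for the controls, 0.40 for miR-205-5p and 0.17 for miR-214-3p. The controls were over 1 apart in 5 members (14.7%), beside 8.77% of all genes tested. Control replicate 1 lay 0.79 and 0.80 from the miR-205-5p arrays and 0.82 and 0.84 from the miR-214-3p arrays. Control replicate 2 lay 1.05 and 1.06 from the miR-205-5p arrays and 0.62 and 0.66 from the miR-214-3p arrays. Over all genes tested, replicates differed by 0.61 for the controls, 0.47 for miR-205-5p and 0.29 for miR-214-3p. There, control replicate 1 lay 0.75 and 0.81 from the miR-205-5p arrays and 0.72 and 0.74 from the miR-214-3p arrays. Control replicate 2 lay 0.97 and 1.01, and 0.58 and 0.62, from them, so the pattern was not particular to the members.

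The calls of several lipid genes changed when 1 control array was left out. IDI1, which isomerises the building block of all isoprenoids, had signals of −0.88 and −0.31 with miR-205-5p, 0.67 and 0.90 with miR-214-3p and −1.00 and 0.65 in the controls. Control replicate 1 lay with the miR-205-5p arrays and control replicate 2 close to the miR-214-3p arrays, as they did for SCD, and IDI1 was not called in any comparison. Without control replicate 1, IDI1 (−1.25, limma adjusted p = 0.0419), ACSS2 (−1.43, adjusted p = 0.00973) and SCD (−2.06, adjusted p = 0.00759) were called lower with miR-205-5p, while all genes called lower went from 956 to 1402. Without control replicate 2, 5 members were called higher with miR-214-3p instead of 0, while all genes called higher went from 131 to 659.

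Those 5 were IDI1 (1.79, limma adjusted p = 0.0385), NPC1 (1.73, adjusted p = 0.0234), ACSS2 (1.21, adjusted p = 0.0276), ACLY (1.41, adjusted p = 0.0234) and SCD (1.29, adjusted p = 0.0276). ABCA1 (−1.07, limma adjusted p = 0.0344) was then called lower with miR-214-3p, and INSIG2 (1.76, adjusted p = 0.0212) higher with miR-205-5p. With 2 control arrays, it cannot be told apart which of them stands for the level without a miRNA. The difference between the precursors needs no control array, and in a fit on those 4 arrays alone 8 members were called lower with miR-205-5p, the 6 above together with IDI1 and SCD, while all genes called lower went from 1353 to 1504.

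**Figure D3:**
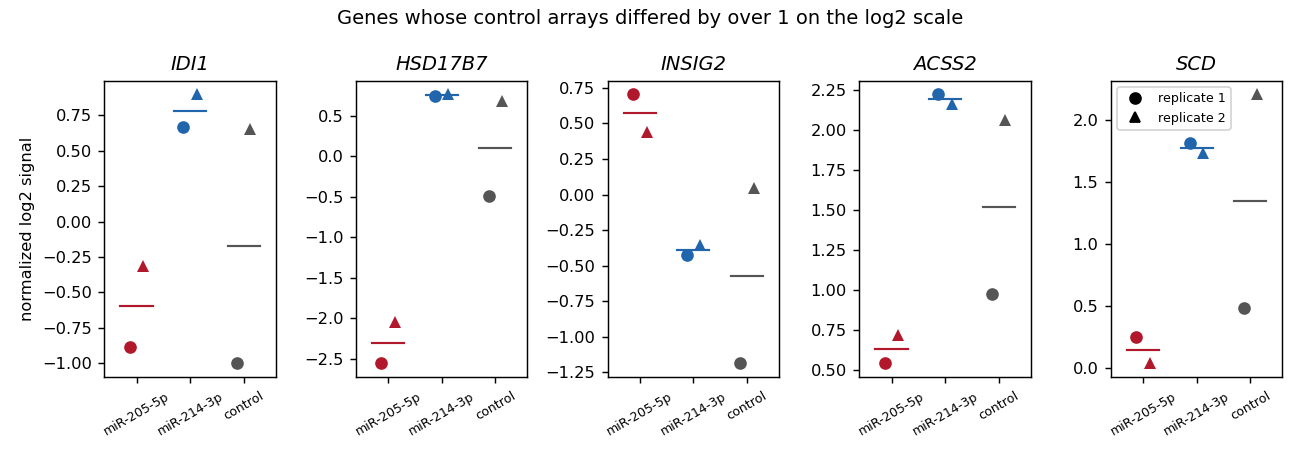
Normalized log2 signals on all 6 arrays of the 5 genes whose control arrays lay over 1 apart, with a bar at the mean of each group of 2 and a vertical axis of its own for each gene. For IDI1 and SCD, control replicate 1 (circle) lies near the miR-205-5p arrays and control replicate 2 (triangle) near the miR-214-3p arrays.

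Promoters were examined for sites of factors known to drive genes of these routes. RefSeq promoters of 300 bases, from 250 before to 50 after the start (GRCh38.p14), were given for 32 of the 37 genes, without ACAT2, FDFT1, SQLE, ABCG1 and FASN. Both strands were searched for the sterol regulatory element TCACNCCAC, the E-box CACGTG and the NF-Y box CCAAT, none of which holds another. The sterol regulatory element in this form was found in 1 of the 32 genes, SREBF2, beside 1.39% of all 27305 genes in the table. The E-box was found in 5 (15.6%), LSS, SC5D, SCAP, INSIG1 and ABCA1, beside 8.77% of all genes. The NF-Y box was found in 22 (68.8%), beside 39.7% of all genes.

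The promoters of the called genes MVK, STARD4, HSD17B7 and INSIG1 and that of SREBF2 are shown with these matches in capitals. They lie at chr12:109573544-109573843 (plus strand), chr5:111512486-111512785 (minus), chr1:162790452-162790751 (plus), chr7:155297628-155297927 (plus) and chr22:41832855-41833154 (plus). MVK, which rose, held 5 NF-Y boxes and STARD4, which rose, held 2, while HSD17B7, which fell, held 2 and INSIG1, which fell, held 1 and an E-box. SREBF2, which was not called, held the sterol regulatory element and 1 NF-Y box. Matches are descriptions of letters only.
MVK: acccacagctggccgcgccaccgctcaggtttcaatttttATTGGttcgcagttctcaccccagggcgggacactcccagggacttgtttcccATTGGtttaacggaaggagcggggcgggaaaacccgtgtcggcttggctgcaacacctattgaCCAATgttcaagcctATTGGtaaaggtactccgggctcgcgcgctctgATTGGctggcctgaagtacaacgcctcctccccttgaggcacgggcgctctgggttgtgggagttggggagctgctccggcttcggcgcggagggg
STARD4: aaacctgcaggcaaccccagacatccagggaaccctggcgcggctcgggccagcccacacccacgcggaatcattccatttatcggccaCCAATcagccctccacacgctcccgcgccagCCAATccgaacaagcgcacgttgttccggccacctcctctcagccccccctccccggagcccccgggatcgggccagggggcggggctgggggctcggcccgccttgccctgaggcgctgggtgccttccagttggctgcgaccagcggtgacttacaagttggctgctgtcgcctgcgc
HSD17B7: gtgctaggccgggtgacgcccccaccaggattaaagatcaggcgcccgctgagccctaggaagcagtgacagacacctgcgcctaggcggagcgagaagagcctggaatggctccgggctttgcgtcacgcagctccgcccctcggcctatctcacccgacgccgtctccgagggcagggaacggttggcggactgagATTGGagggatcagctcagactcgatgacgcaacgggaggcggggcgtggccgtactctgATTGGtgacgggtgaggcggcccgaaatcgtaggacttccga
INSIG1: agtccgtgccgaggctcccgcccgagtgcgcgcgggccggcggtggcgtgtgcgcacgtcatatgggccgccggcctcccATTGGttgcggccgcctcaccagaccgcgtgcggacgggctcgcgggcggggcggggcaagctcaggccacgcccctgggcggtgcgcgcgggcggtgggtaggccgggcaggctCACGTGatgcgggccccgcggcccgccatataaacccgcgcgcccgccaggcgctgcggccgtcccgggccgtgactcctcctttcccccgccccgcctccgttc
SREBF2: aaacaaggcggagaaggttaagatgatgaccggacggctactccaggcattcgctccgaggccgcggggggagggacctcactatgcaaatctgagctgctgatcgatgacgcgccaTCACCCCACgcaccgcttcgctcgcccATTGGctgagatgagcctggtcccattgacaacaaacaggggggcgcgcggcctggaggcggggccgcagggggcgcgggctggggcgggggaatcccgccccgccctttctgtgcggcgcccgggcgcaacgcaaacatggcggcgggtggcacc

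Other lipid genes were counted from lists of 43 genes, of which 37 were tested. With miR-205-5p, 2 (5.41%) were called higher and 5 (13.5%) lower than in the control, with miR-214-3p 0 and 1 (2.7%), and between the precursors 0 and 8 (21.6%). Beside these stood 4.79% and 7.98%, 1.09% and 2.02%, and 9.19% and 11.3% of all 11974 genes. The counts of 0 are from limma. At an unadjusted limma p under 0.05 with no fold limit, 6 and 16 of the 37 genes differed in either direction in the same comparisons. Beside these stood 2903 and 5771 of all 11974 genes. LBR, the other sterol C14 reductase beside TM7SF2, had signals of 4.59 and 4.30 with miR-205-5p, 6.37 and 6.31 with miR-214-3p and 6.29 and 6.20 in the controls. Its fall with miR-205-5p was −1.80 ± 0.17 (SE, limma adjusted p = 0.00797), and with miR-214-3p it was within 0.10 of the control. ERLIN2, an endoplasmic reticulum protein, rose by 1.40.

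Further calls came from genes that use or extend fatty acids. ELOVL1, an elongase of very long chains, was −1.86 with miR-205-5p against the control and −2.52 against miR-214-3p, and SLC25A20, the mitochondrial acylcarnitine carrier, −1.57 and −2.00. HADHA, of the mitochondrial trifunctional protein for fatty acid oxidation, was at least 4.36-fold lower with miR-205-5p than in the control, with neither array above background (limma adjusted p = 0.00797). Its partner HADHB was not called by its brightest probe (0.53), while its other probe gave −2.14 (limma adjusted p = 0.0242). MLXIPL, a glucose-sensing transcription factor, was called lower by fitted values, with neither miR-205-5p array above background. Its bounds, at least 1.54-fold against the control and 1.97-fold against miR-214-3p, were under the fold limit.

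Between the precursors alone, DHDDS, which builds dolichol, TECR, which completes elongation, and ACSL1, which activates fatty acids, were also lower with miR-205-5p, at −1.06, −1.13 and −2.06. With miR-214-3p against the control, ECHS1, of fatty acid oxidation, was the only gene of these lists called, at −1.12 (limma adjusted p = 0.0371). ERLIN1 had the highest value there, 1.50, and was not called (limma adjusted p = 0.0961). The lists for sterol storage and lysosomes gave 0 calls by limma in the 3 comparisons, with values from −0.67 to 0.95. With miR-205-5p against the control, 4 of the 7 genes were under an unadjusted limma p of 0.05, beside 4727 of all 11974 genes. The highest value, 0.95, was that of NR1H3, a nuclear receptor for oxysterols, between the precursors (limma adjusted p = 0.0146).

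**Figure D4:**
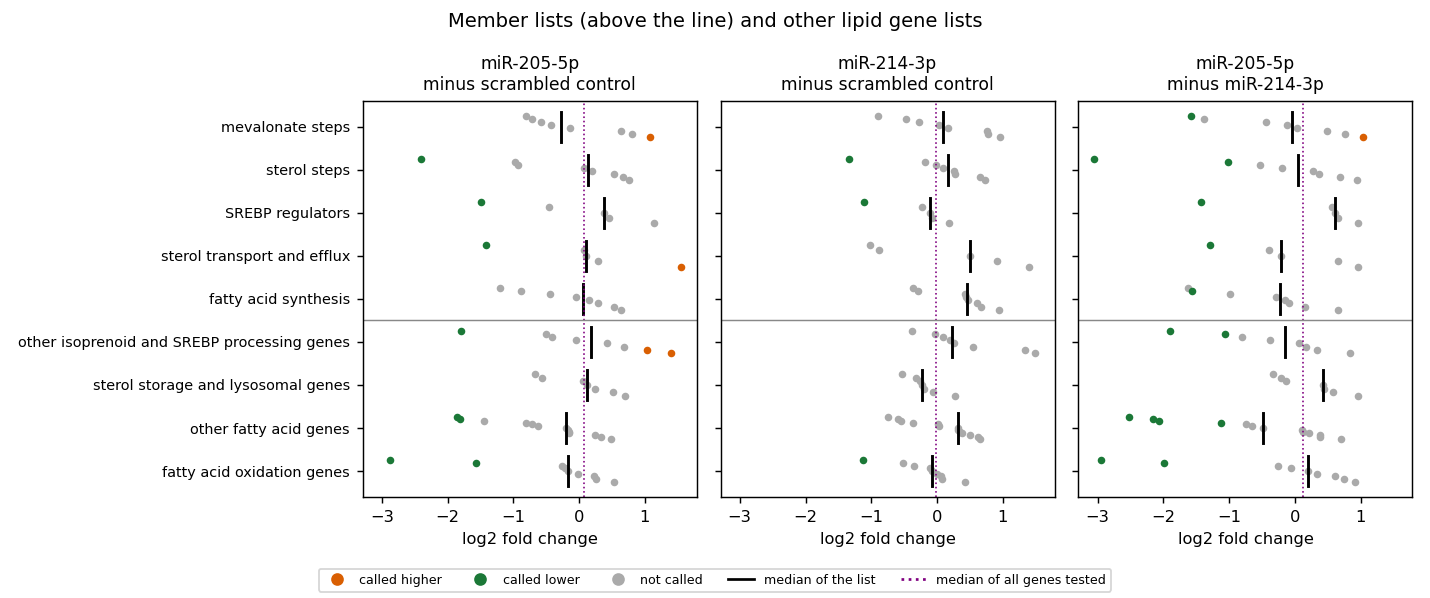
Each point is 1 gene's log2 fold change in the comparison named above the panel, by list, with the members' lists above the grey line. Black bars give each list's median and the dotted line the median of all 11974 genes, and the points called lower between the precursors, down to −3.06 for HSD17B7, come from 8 of the 9 lists.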

How the data were processed

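Total RNA was labeled with 1 dye and hybridized to 6 Agilent arrays, 2 per group, and the groups were taken from the sample labels. The authors deposited scanner output of Agilent Feature Extraction 11.0, whose processed signal is a linear intensity, corrected for background and for spatial trends but not scaled between arrays. Further columns hold the median signal, the median background and, per the file headers, other values, namely 0 or 1 flags for spots above background, saturated or outlying. A second deposited table holds the authors' log2 values for the same arrays, and its 6 columns share the same sorted values. Each of its columns had a median of 3.485 and correlated with the log2 of the processed signal at 0.997 or more, so its direction is settled, while its centring is not stated.

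Control spots and outliers (245 to 463 per array) were dropped, spots of a probe were averaged on the log2 scale, and the 75th percentile of the array (35.1 to 58.0 before log2) was subtracted. Of 50599 probes, 18464 were kept. Accessions were matched to symbols through the RefSeq gene table (GRCh38.p14), used for names only because the array design is on another build. Of all probes 30275 were matched, and of the kept probes 83.3%. The brightest kept probe stood for a gene, which gave 11974 genes. limma's lmFit and eBayes were run over the 6 arrays with 3 residual and 2.48 prior degrees of freedom, and p-values were adjusted over all kept probes. The number of arrays limits the precision. The procedure was tested on simulated data. R 4.3.3, limma 3.58.1, data.table (1.17.8) and matplotlib 3.10.9 were used.

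Values on every array are given for 10 pathway genes chosen as landmarks, where a probe was kept, and for up to 5 members called higher and 5 called lower with the largest change in each comparison. INSIG2 was added after its values were seen, and so was LBR on every array. The members and lists were chosen with earlier results of these data known. The alternatives were other background corrections, scalings, filters, fits, tests and gene summaries, the table of log2 values, and leaving out each array.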

Additional observations from a re-analysis of the deposited data

How the results depend on the processing

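All 14 log2 fold changes of called members kept their sign under every alternative that gave a value, with 0 reversed, while their calls were often lost. Counts of members called follow as higher and lower, beside 2 and 3 for miR-205-5p against the control, 0 and 2 for miR-214-3p against the control and 1 and 6 between the precursors.

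For miR-205-5p against the control, normexp background correction (offset 50) gave 0 higher and 0 lower, quantile normalization 1 higher, scaling to the median 1 higher and 7 lower, the authors' table of log2 values 1 higher, no filter on dim probes 0 and 0, only the 4 arrays compared 1 and 0, and probes above background on all arrays 0 lower, because that filter removed the 3 members called lower before the test (31 members tested). The methods' t-test gave 1 lower, and 0 and 0 after Benjamini-Hochberg adjustment, and no limit on fold gave 6 lower. Of all genes, normexp called 134 higher and 617 lower, beside 573 and 956 before. Scaling to the median called 211 and 1877, no filter 112 and 201 (of 21743 genes), and only the 4 arrays compared 212 and 406. Quantile normalization and the authors' table called 532 and 534 higher. Probes above background on all arrays gave 743 lower and no limit on fold 1350. The methods' t-test called 692 lower, and 0 and 0 after adjustment.

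For miR-214-3p against the control, 1 was higher (NPC1) with probes above background on all arrays, with intensity trend and robust spread, with unadjusted p and with the mean over the probes of a gene. In that order, these settings called 165, 157, 319 and 188 of all genes higher. The count lower was 0 with no filter, with only the 4 arrays compared, and with the methods' t-test after Benjamini-Hochberg adjustment, and each of these called 0 of all genes lower too.

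Between the precursors, normexp gave 0 higher and 2 lower, quantile normalization, scaling to the median and the authors' table each 0 higher, no filter 0 higher and 2 lower, and no limit on fold 6 higher. Of all genes, normexp called 417 higher and 645 lower, and no limit on fold 2142 higher. Quantile normalization, scaling to the median and the authors' table called 1017, 636 and 999 of all genes higher. No filter called 521 higher and 727 lower, of 21743 genes. In these limma fits the counts of 0 came with 0 to 3 members at an unadjusted p under 0.05 and a 2-fold change in that direction.

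Without 1 array, the counts ranged from 0 to 2 higher and 0 to 5 lower for miR-205-5p against the control, from 0 to 5 and 0 to 3 for miR-214-3p against the control, and from 0 to 1 and 0 to 8 between the precursors, where the lone array of a group was assumed to vary like the rest. Where limma gave 0 in these fits, 1 to 6 members were at an unadjusted p under 0.05 and a 2-fold change in that direction. In the fits without 1 array, the counts of all genes called also changed widely in each comparison. The ranges of members called therefore do not set the members apart. Deviations of arrays with the same replicate number correlated at 0.0079, −0.0515 and 0.109 over probes, so the numbers do not pair the arrays. With the replicate block, 0 members were lower with miR-214-3p, where 0 of all genes were called, and 2 with miR-205-5p against the control, and the other counts did not change. Scaling to the median moved the median of all genes by −0.39, −0.16 and −0.22 in the 3 comparisons, while quantile normalization moved it by less than 0.1. Members dim in a group have bounds only there, and the causes of lost calls were not tested. normexp used the median signal of a spot, and no slide block could be fitted with 1 slide.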
